A study of Sus scrofa with 12 samples.

Results

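This section is about how far the change from a freshly isolated cell to a dedifferentiated, cultured cell differed between 2 pig cell lineages, fat and granulosa. It rests on all 12 arrays of the series and on 1 contrast, the change in the fat lineage (DFAT minus MA) minus the change in the granulosa lineage (DFOG minus GC), called the interaction here. The interaction was tested on all 23999 probe sets of an Affymetrix porcine array other than its control probe sets, and 5593 of them (23.3%) passed limma's test at an adjusted p under 0.05. MA are mature adipocytes isolated from pig fat tissue, and DFAT are such cells after ceiling culture, in which buoyant fat cells settle on the ceiling of a flask full of medium, lose their lipid and start to divide. GC are granulosa cells taken from pig ovarian follicles, and DFOG are granulosa cells after dedifferentiation in culture. Both cultured types were harvested at semiconfluence. Each group had 3 arrays of total RNA labelled as biological replicates. Age, breed, sex, number of animals and pooling are not given in the labels used here, so p-values measure only the spread between these samples. DFOG replicates 2 and 3 were nearly identical (their log2 values differed with an SD of 0.07, while other pairs of replicates gave 0.31 to 0.62) and were averaged, which left 11 samples, 2 of them DFOG.

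Mature adipocytes store triglyceride in 1 large droplet, make and break down that fat with enzymes under control of the transcription factor PPARG, and secrete hormones such as adiponectin. Granulosa cells surround the oocyte, respond to FSH and LH, secrete inhibin and take part in steroid synthesis, and they divide rapidly as the follicle grows. Cells of either kind that attach and spread in culture are known to lose such specialised products and to build actin stress fibres and extracellular matrix. An interaction can come from changes in opposite directions, or from cells that began at different levels and ended at like ones, so each result below is given with both changes and with the levels before culture. All levels are log2 values, and a difference of 1 is a 2-fold difference.

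The labelled identities were checked on defining markers. ADIPOQ, which encodes adiponectin, had a level of 13.99 ± 0.28 in MA (SD, n = 3) and 4.19 ± 0.26 in GC. INHA, the inhibin alpha subunit, had a level of 14.64 ± 0.21 in GC and 6.96 ± 0.21 in MA. LIPE, FABP4 and LPL were likewise high in MA, and HSD17B1, LHCGR and FST in GC, whereas the group means of aromatase (CYP19A1) lay between 4.95 and 5.14 and those of FOXL2 between 5.56 and 5.72. PLIN1 and CIDEC were not matched to a probe set here. The mean level of 12 macrophage markers was 5.74 to 6.68 in the MA samples and 4.42 to 4.70 in all other samples. For 12 epithelial junction genes these ranges were 5.95 to 6.37 and 4.96 to 5.43, and for 12 endothelial markers 5.49 to 5.98 and 5.05 to 5.33. The mean of 9 theca cell and oocyte markers, LHCGR among them, was 6.31 to 6.47 in GC and 4.99 to 5.72 in all other samples. In bulk RNA, fewer cells of a type and less RNA per cell cannot be told apart. For the actin control, the 3' signal exceeded the 5' signal, a gap that reflects RNA integrity and labelling, by 1.5 to 2.47 in MA, 0.33 to 0.97 in DFAT, 0.72 to 1.76 in GC and 0.15 to 0.62 in DFOG, and this gap was thus lower after culture in both lineages, and its interaction was -0.31.

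Most lineage differences in the response were a change that passed the test in 1 lineage only. Of the 5593 probe sets, 3986 (71.3%) had such a pattern: 1353 (5.64% of those tested) fell and 1008 (4.2%) rose in fat only, and 957 (3.99%) fell and 668 (2.78%) rose in granulosa only. Opposite changes, with all 3 tests passed, were found at 722 probe sets (12.9%), of which 376 (1.57%) fell in fat and rose in granulosa and 346 (1.44%) did the reverse. A further 659 changed in the same direction by different amounts (397, or 1.65%, up in both lineages and 262, or 1.09%, down in both), and 226 (0.942%) had an interaction without either change passing. The calls were split nearly evenly, with 2775 above 0 (11.6% of those tested) and 2818 below 0 (11.7%). For orientation, 7706 probe sets (32.1%) passed for DFAT minus MA and 5971 (24.9%) for DFOG minus GC.

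**Figure D1:**
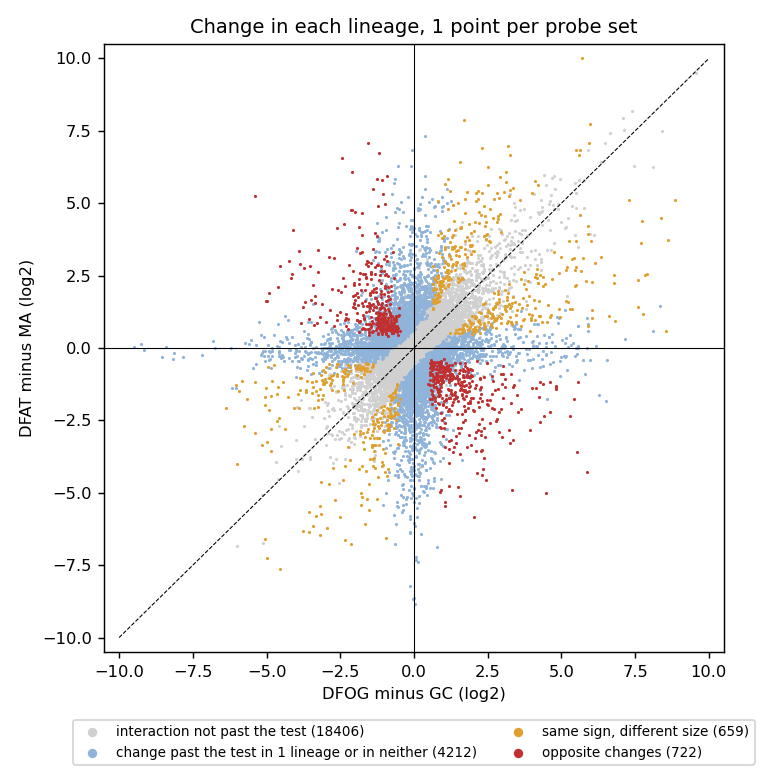
Change in the granulosa lineage (DFOG minus GC, x axis, log2) against change in the fat lineage (DFAT minus MA, y axis, log2) for 23999 probe sets, 1 point each; the dashed line marks equal changes. The 722 probe sets with opposite changes fill the upper left and lower right quadrants, while the 3986 with a change past the test in 1 lineage lie mostly along the axes.

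The count of opposite changes depended on how the values were handled. With this actin gap as a covariate 308 changes were called opposite, 266 of them among the 722, although 5448 of the 5593 interaction calls were kept. Without DFOG replicate 1 the opposite count was 443 and the same-sign count 380. Centring the arrays on 36 poly-A spike-in control probe sets moved the median interaction from -0.05 to 1.27, and then 95.2% of the calls lay above 0 against 49.6% as deposited, so every direction below is relative to the bulk of the probe sets.

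The starting levels of the lineages differed far more than their levels after culture. MA and GC differed at 9713 probe sets (40.5%), DFAT and DFOG at 1921 (8.0%), and the SD of the difference over probe sets was 1.39 before and 0.73 after culture. The interaction equals the end gap (DFAT minus DFOG) less the start gap (MA minus GC), and shares its arrays with both gaps, so the following split is an accounting and not a separate test. Among the probe sets with a called start gap, 5044 of 9713 (51.9%) also had a called interaction. Of the 11617 whose start gap was not called and whose 95% interval lay within 1 log2 unit of 0, 360 (3.10%) had one.

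Of the 5593 interaction calls, 4334 (77.5%, and 18.1% of all those tested) converged: the gap passed the test before culture and no longer did after it, and at 2909 of these the 95% interval of the end gap lay within 1 of 0. At 400 (7.15%, 1.67% of those tested) the gap passed after culture only. At 222 (3.97%, 0.925%) it passed at both times with its sign turned, with MA the higher start at 155 and GC at 67, 488 (8.73%, 2.03%) kept a called gap of the same sign, and 149 (2.66%, 0.621%) had neither gap called. Over all calls the gap became smaller at 4825 (86.3%), and its median size went from 1.61 to 0.36. Without DFOG replicate 1, 119 turned in sign, 251 had a gap after culture only and 261 kept theirs.

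**Figure D2:**
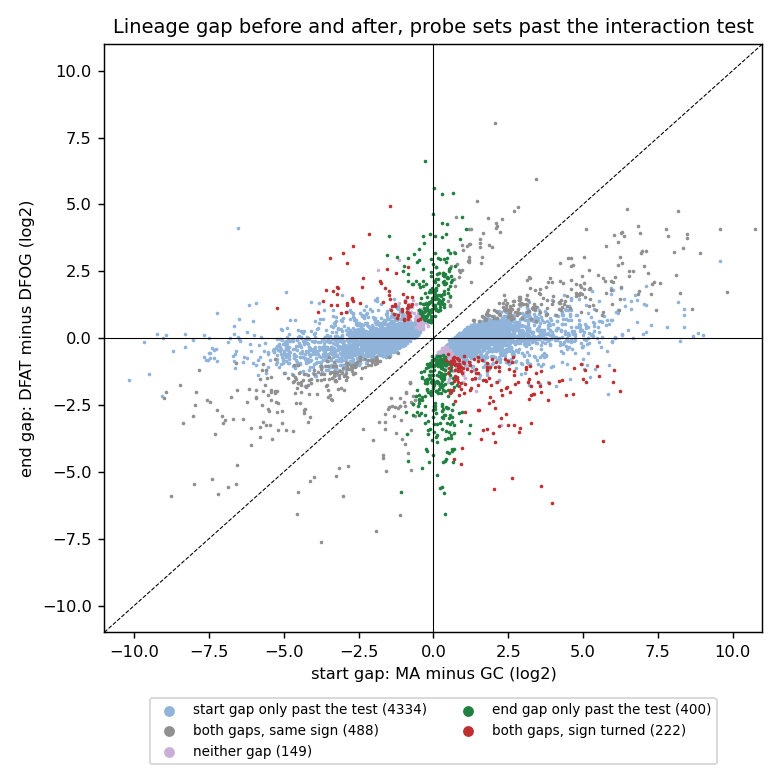
Start gap (MA minus GC, x axis, log2) against end gap (DFAT minus DFOG, y axis, log2) for the 5593 probe sets past the interaction test, coloured by which gaps passed; on the dashed line the gap would be unchanged. The 4334 probe sets whose gap passed at the start only form a flat band around an end gap of 0, the 400 with a gap after culture only stand along the vertical axis, and the 222 whose gap turned in sign lie in the upper left and lower right.

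Opposite changes, too, mostly ran from different starts towards a smaller gap. Among the 722, the start gap was called at 702 (97.2%) and the gap narrowed at 662 (91.7%). The 95% interval of the end gap lay within 1 of 0 at 343 (47.5%), and a called gap was left at 171 (23.7%). At 345 of the 346 probe sets that rose in fat and fell in granulosa GC started higher, and at 369 of the 376 with the reverse pattern MA started higher. The median levels of the former class were 6.34 in MA and 9.13 in GC before culture, and 7.86 in DFAT and 7.79 in DFOG after it. For the latter class they were 9.62 and 6.74 before, and 8.05 and 8.32 after. Both changes were at least 1 log2 unit at 164 and 189 probe sets of these classes.

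The opposite changes spanned 253 named genes, of which 108 rose in fat and fell in granulosa (1.60% of 6765 named genes). The insulin-like growth factor binding protein IGFBP2 and the serpin SERPINE2, which inhibits thrombin and plasminogen activators, had the largest interactions of this class among those named. SERPINE2 levels were 5.07, 4.91 and 4.89 in MA, 11.37, 11.32 and 11.90 in DFAT, 13.45, 14.28 and 13.93 in GC and 11.79 and 11.07 in DFOG. DFAT and DFOG overlapped after starts that lay far apart, and the interaction was 9.03 (SE 0.38, adjusted p = 1.53e-07). IGFBP2 levels were 5.85, 6.29 and 4.84 in MA, 7.54, 12.42 and 12.74 in DFAT, 12.66, 11.79 and 12.10 in GC and 6.95 and 6.62 in DFOG. DFAT replicate 1 stood well below the other DFAT samples, whose levels were those of GC rather than of DFOG. The IGFBP2 interaction was 10.64 (SE 1.61, adjusted p = 6.68e-04) and 12.32 without DFAT replicate 1, in which case the end gap passed the test with its sign turned. With the actin covariate the IGFBP2 rise in fat no longer passed (adjusted p = 0.0537).

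PTGES, the synthase that makes prostaglandin E2, rose by 3.39 in fat and fell by 3.25 in granulosa, and its levels were 6.36, 8.06 and 8.31 in MA, 10.83, 10.99 and 11.07 in DFAT, 12.72, 12.84 and 11.93 in GC and 9.22 and 9.26 in DFOG. GC stood highest and MA lowest, and all DFAT values lay above both DFOG values although the end gap did not pass (adjusted p = 0.0519). LRP8, a receptor for apolipoprotein E and reelin, had levels of 4.13, 3.99 and 4.38 in MA, 6.92, 6.44 and 6.87 in DFAT, 13.13, 12.75 and 12.04 in GC and 8.72 and 8.30 in DFOG. Its 4 groups did not overlap, and GC remained the lineage of higher level after culture as before it. RARRES1, a membrane protein induced by retinoic acid, had the same order, with an interaction of 6.77 (SE 0.45, adjusted p = 2.31e-06). The remaining genes of this class chosen by the size of the smaller change were LHFPL2 (interaction 6.03), MSANTD3 (5.90) and the serine hydrolase-like gene SERHL2 (6.60), all converging.

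In the reverse class, 145 named genes fell in fat and rose in granulosa (2.14% of those named). HSD3B1, whose product makes progesterone from pregnenolone, had levels of 8.96, 10.36 and 10.44 in MA, 6.09, 5.01 and 5.86 in DFAT, 6.25, 5.60 and 5.99 in GC and 11.48 and 12.17 in DFOG. The lineages exchanged places: MA lay above GC, and DFOG lay above every other sample, while DFAT and GC overlapped. HSD3B1 fell by 4.27 in fat and rose by 5.88 in granulosa, with an interaction of -10.14 (SE 0.61, adjusted p = 1.19e-06). RGCC, a regulator of the cell cycle, had levels of 13.30, 13.07 and 13.20 in MA, 8.62, 8.57 and 8.75 in DFAT, 7.96, 7.69 and 7.26 in GC and 9.98 and 10.18 in DFOG. None of its groups overlapped, and its gap also turned in sign.

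Fat-metabolism genes were among those that moved towards each other from above in fat and from below in granulosa. ACSL1, which activates long-chain fatty acids, had levels of 11.63, 11.92 and 11.40 in MA, 8.52, 9.11 and 8.80 in DFAT, 4.41, 4.47 and 4.27 in GC and 8.47 and 8.18 in DFOG. GC was far below all other groups, DFAT lay above DFOG by a gap that did not pass, and the interaction was -6.78 (SE 0.29, adjusted p = 1.53e-07). ABHD5, the activator of adipose triglyceride lipase, had levels of 10.39, 9.99 and 10.12 in MA, 7.63, 7.42 and 7.68 in DFAT, 3.78, 4.03 and 4.06 in GC and 6.29 and 6.76 in DFOG. The order of the lineages was kept, with the gap reduced, and the interaction was -5.16 (SE 0.27, adjusted p = 4.69e-07). Other genes of this kind were FABP4, the fatty acid carrier of adipocytes (fall of 4.38 in fat, rise of 2.31 in granulosa), and MGLL, monoacylglycerol lipase (3.41 and 1.34).

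GPNMB, a transmembrane glycoprotein, and GPM6B, a proteolipid-family membrane protein, converged as well, with interactions of -6.05 (SE 0.70, adjusted p = 1.12e-04) and -6.56 (SE 0.72, adjusted p = 7.72e-05). The RNA-binding splicing regulator CELF2 had an interaction of -6.85 (SE 0.75, adjusted p = 7.44e-05). For GPM6B and CELF2 the opposite call was lost with the actin covariate. RGS5, which shortens G protein signalling, differed from the rest in its start. RGS5 levels were 8.01, 6.64 and 6.95 in MA, 3.91, 4.02 and 4.48 in DFAT, 9.18, 7.59 and 8.23 in GC and 10.67 and 10.82 in DFOG. MA and GC overlapped, DFAT lay below all other samples and DFOG above them, with an interaction of -5.48 (SE 0.61, adjusted p = 8.83e-05). Its start gap of -1.13 passed (adjusted p = 0.0468), but the start and end classes held in 11 of 24 alternatives only.

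**Figure D3:**
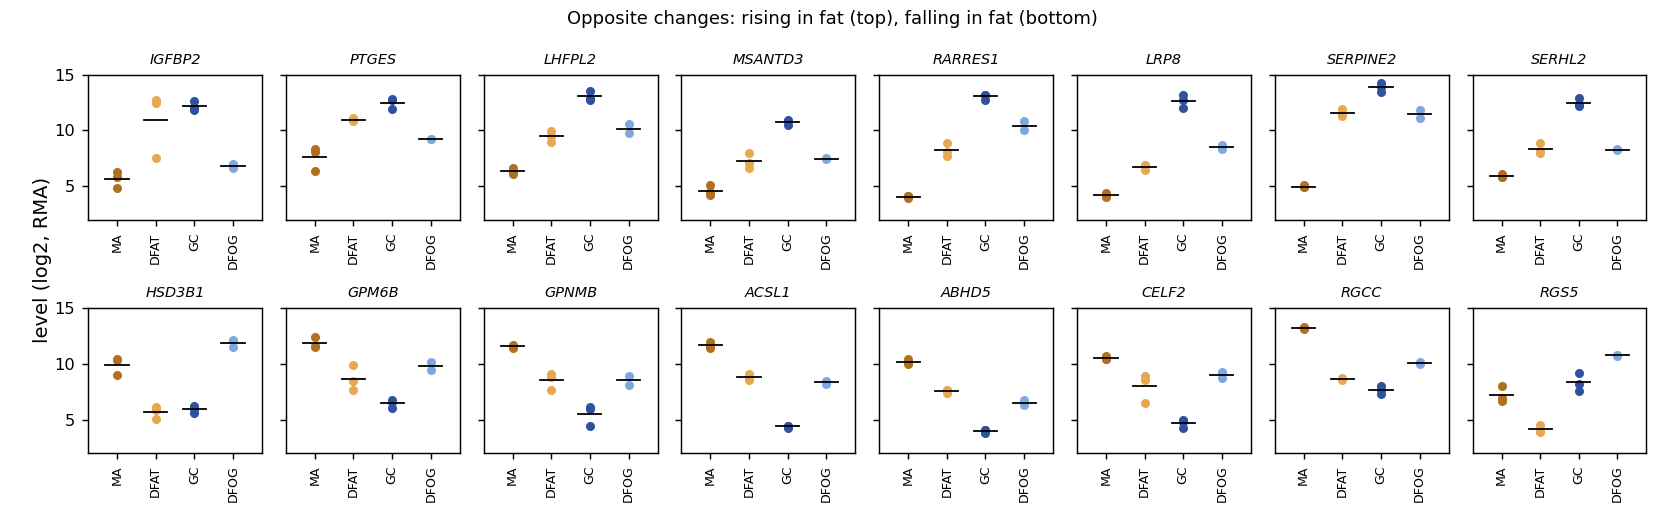
Levels (y axis, log2 RMA) in each sample of MA, DFAT, GC and DFOG for the 16 genes with opposite changes chosen by the size of the smaller change; points are samples and bars are group means. In the top row the DFAT and DFOG points lie between MA and GC for most genes, with IGFBP2 split between 7.54 and 12.42 to 12.74 in DFAT; in the bottom row HSD3B1 and RGS5 end far apart.

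Opposite changes from like starts were few in the values as deposited. The 95% interval of the start gap lay within 1 of 0 at 13 of the 722 probe sets (1.80%), 6 named genes among them. That interval did so at 484 (8.65%) of all 5593 interaction calls and at 12528 of all 23999 probe sets tested. The genes in this and the next paragraph were singled out after their values were seen. SHROOM3, which drives apical constriction of epithelial cells, had levels of 6.48, 6.28 and 5.67 in MA, 4.07, 4.25 and 3.80 in DFAT, 5.71, 5.68 and 5.46 in GC and 8.25 and 8.43 in DFOG. MA and GC overlapped, DFAT lay below all of them and DFOG above, and the interaction was -4.83 (SE 0.32, adjusted p = 2.29e-06) with a start gap of 0.53 (95% interval 0.05 to 1.0). That interval left out 0 and ended just under the limit of 1. The opposite call of SHROOM3 held in all 24 alternatives. Its start and end classes were lost with poly-A centring, with array weights and without MA replicate 3. EPAS1, which encodes the hypoxia-inducible factor HIF-2 alpha, moved the other way, with levels of 7.90, 7.46 and 7.51 in MA, 8.88, 9.87 and 10.09 in DFAT, 9.25, 7.85 and 7.72 in GC and 6.79 and 6.14 in DFOG. GC replicate 1 overlapped DFAT, and both DFOG values lay below all other samples. EPAS1 rose by 1.99 in fat and fell by 1.81 in granulosa, and the start gap was -0.65 (95% interval -1.57 to 0.27), too wide to count as a like start. Its opposite call held in 21 of 24 alternatives and was lost with the actin covariate, at an adjusted p under 0.01 and without the averaged DFOG sample. With poly-A centring EPAS1 no longer counted as having a gap after culture only.

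FGF13, an intracellular FGF family member that regulates sodium channels, fell by 1.24 in fat and rose by 2.98 in granulosa (interaction -4.23 (SE 0.44, adjusted p = 5.25e-05)). For the mucin-type glycoprotein podoplanin (PDPN) the interaction was -3.76 (SE 0.77, adjusted p = 0.00468), but the opposite call held in 14 of 24 alternatives. Smaller opposite changes were measured for AVPI1 (interaction -2.63), CRISPLD2 (2.51), TPD52 (2.27), MBNL3 (-1.71), CD34 (-1.41) and KITLG (-1.24). KITLG is the ligand of the KIT receptor of oocytes. The start gap intervals of FGF13 (-0.04 to 1.25), PDPN (-0.53 to 1.74) and CRISPLD2 (-1.22 to 0.23) were too wide for a like start. AVPI1 and KITLG counted as like starts, but their start gaps passed limma's test (0.57, adjusted p = 0.0330, and 0.56, adjusted p = 0.0226). With poly-A centring KITLG had an interaction of 0.08, and CRISPLD2, TPD52, MBNL3 and CD34 no longer counted as having a gap after culture only. The opposite call of CD34 held in 7 of 24 alternatives, that of AVPI1 in 18, that of CRISPLD2 in 13, that of MBNL3 in 14 and that of KITLG in 10 of 23.

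Besides HSD3B1, the genes whose lineage gap turned in sign with the largest smaller gap were SGK1, MMD and NUAK1 with MA higher at the start, and ABCB1, TMEM158, AREG and ACTG2 with GC higher at the start. The class held 91 named genes (1.35%). ABCB1, the drug efflux pump P-glycoprotein, had levels of 4.59, 4.40 and 4.76 in MA, 9.37, 8.79 and 9.58 in DFAT, 7.93, 8.32 and 7.83 in GC and 5.86 and 6.66 in DFOG. No groups of ABCB1 overlapped, and DFAT was the highest, with an interaction of 6.43 (SE 0.39, adjusted p = 1.21e-06). AREG, a ligand of the EGF receptor that LH induces in granulosa cells, had levels of 3.48, 3.24 and 3.48 in MA, 8.42, 8.22 and 6.09 in DFAT, 6.27, 5.21 and 5.20 in GC and 3.79 and 3.61 in DFOG. DFAT replicate 3 overlapped GC replicate 1, and DFOG lay just above MA. The AREG interaction was 6.03 (SE 0.77, adjusted p = 2.18e-04), while its fall in granulosa passed narrowly (adjusted p = 0.0365) and the opposite call held in 15 of 24 alternatives.

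SGK1, a serum- and glucocorticoid-induced kinase, had levels of 9.53, 8.59 and 8.84 in MA, 7.46, 7.96 and 7.99 in DFAT, 6.86, 5.32 and 5.17 in GC and 9.999 and 10.14 in DFOG. DFOG rose past every MA value, whereas the fall in fat was small (1.18, adjusted p = 0.0429) and the opposite call held in 14 of 24 alternatives. NUAK1, a kinase of the AMPK family, rose in granulosa only, with levels of 10.28, 10.002 and 9.999 in MA, 9.24, 10.47 and 9.78 in DFAT, 6.68, 6.91 and 6.87 in GC and 12.09 and 11.85 in DFOG. DFOG lay above all MA and DFAT values, which overlapped, and the interaction was -5.42 (SE 0.39, adjusted p = 3.89e-06). MMD fell in fat only, with levels of 8.25, 6.98 and 7.29 in MA, 3.6, 3.77 and 3.49 in DFAT, 4.73, 5.61 and 5.55 in GC and 5.72 and 8.11 in DFOG. Its DFOG values were far apart, and the interaction was -5.50 (SE 0.78, adjusted p = 4.51e-04). ACTG2, smooth muscle gamma actin, and TMEM158 rose in both lineages, ACTG2 by 10.001 in fat and 5.68 in granulosa, and TMEM158 by 7.86 and 1.71. The both-rising call of TMEM158 held in 17 of 24 alternatives, and the fat-only call of MMD in 19.

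The largest group of calls, a fall in fat only, included products that mark the fat cell. CA3, carbonic anhydrase III, had levels of 12.64, 12.79 and 12.94 in MA, 3.85, 4.32 and 4.18 in DFAT, 3.35, 4.36 and 4.15 in GC and 3.93 and 3.91 in DFOG. MA alone was high, and the other 3 groups overlapped. A fall in fat only with no called gap after culture was also measured for paraoxonase PON3 (interaction -8.61 (SE 0.49, adjusted p = 8.60e-07)), the kinase SGK2 (-7.39 (SE 0.52, adjusted p = 3.11e-06)) and the phosphodiesterase subunit PDE6C (-6.23 (SE 0.45, adjusted p = 4.02e-06)). ADIPOQ levels were 14.18, 14.12 and 13.67 in MA, 5.0, 6.82 and 5.51 in DFAT, 4.48, 4.02 and 4.06 in GC and 4.05 and 4.07 in DFOG. All DFAT values lay above those of both granulosa groups, and a called gap of 1.72 was left (adjusted p = 0.0273). At 1280 of the 1353 probe sets of this class (94.6%) GC had begun at or beyond the DFAT level, within 1 log2 unit. At 39 of the rest GC had begun within 1 log2 unit of MA. Probe sets near both levels count only among the 1280, and the median change in fat was -1.56 in this class. GC lay under 4.49, the lower quartile of all group means, at 260 of the 1353 (19.2%). That share is no higher than the one a lower quartile holds by definition.

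Of 12 measured adipocyte identity genes, 9 had a called interaction below 0 and none a called one above it, against 8 and 1 with poly-A centring. For each gene list, counts above or below 0 are of interactions that passed the test. Over all named genes 29.2% had a called interaction, 15.9% below 0 and 13.2% above, while 20.8% rose and 20.4% fell in fat and 17.2% rose and 13.4% fell in granulosa. The adipocyte list had an interaction median of -4.83 against -0.06 over all named genes. Besides ADIPOQ and FABP4 the 9 called below 0 as deposited were LIPE, hormone-sensitive lipase (-6.20), the retinol carrier RBP4 (-6.4), CIDEA (-5.49), GPD1 (-5.26), CEBPA (-4.39), LPL (-4.37) and LEP, leptin (-2.46). PPARG was the exception among the large falls. It fell by 4.51 in fat, from a mean of 12.38 to 7.88, and by 4.60 in granulosa, from 9.98 to 5.38, and its interaction was 0.09 (95% interval -0.96 to 1.14). CFD and RETN did not pass the interaction test.

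Enzymes that make fat had 10 of 15 interactions called below 0 and 2 above it (median -1.87, or -0.55 with 7 below and 5 above under poly-A centring). DGAT2, which completes triglyceride, had levels of 12.50, 12.38 and 12.51 in MA, 5.51, 6.48 and 7.70 in DFAT, 5.34, 5.39 and 5.55 in GC and 5.39 and 5.22 in DFOG. MA stood far above all others, and DFAT overlapped GC in its lowest value only. ELOVL6 (-5.48), pyruvate carboxylase PC (-4.93), fatty acid synthase FASN (-4.48) and LPIN1 (-4.37) followed, and for each the granulosa change did not pass. The desaturase FADS1 rose by 3.48 in fat (interaction 2.55), and AGPAT2 fell more in granulosa than in fat (1.46). For lipolysis and fatty acid oxidation, 10 of 18 were called below 0 and 1 above it (median -1.39, or -0.07 with 6 below and 3 above under poly-A centring), among them ACAA1 (-3.61) and the lipase PNPLA2 (-2.90), while CPT1A, which admits fatty acids to mitochondria, rose by 2.81 in fat and 1.30 in granulosa (1.52).

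Enzymes of branched-chain amino acid breakdown fell in both lineages, more so in fat. Of 12 measured, 10 fell in fat and 9 in granulosa, and 8 had a called interaction below 0 (median -1.14, which became 0.18 with poly-A centring). MCCC2, a carboxylase subunit of leucine breakdown, fell by 3.96 in fat, while in granulosa it changed by -0.02 without passing. ACADSB, a short branched-chain acyl-CoA dehydrogenase, fell by 2.76 in fat and 0.90 in granulosa, but its interaction did not pass with poly-A centring (-0.55, adjusted p = 0.201). The cytosolic aminotransferase BCAT1 rose by 3.45 and 2.91, with an interaction of 0.55 (95% interval -0.26 to 1.36).

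Falls in granulosa only included products that mark the granulosa cell. HSD17B1, which turns estrone into estradiol, had levels of 5.43, 5.38 and 5.47 in MA, 5.58, 5.61 and 5.18 in DFAT, 13.48, 14.09 and 13.58 in GC and 5.32 and 5.31 in DFOG. GC alone was high, and all other values lay together. INHA levels were 7.16, 6.75 and 6.98 in MA, 7.24, 6.83 and 6.13 in DFAT, 14.85, 14.64 and 14.43 in GC and 7.59 and 7.28 in DFOG. Again GC stood alone, and all MA values lay slightly below both DFOG values. DAPL1 (7.98 (SE 0.24, adjusted p = 1.75e-08)), the glutathione transferase GSTA1 (7.78 (SE 0.26, adjusted p = 2.97e-08)) and the acyl-CoA synthetase ACSL6 (6.73 (SE 0.32, adjusted p = 2.65e-07)) also fell in granulosa only. At 932 of the 957 probe sets of this class (97.4%) MA had begun at or below the DFOG level, within 1 log2 unit. At 10 of the rest MA had begun within 1 log2 unit of GC. Probe sets near both levels count only among the 932, and the median change in granulosa was -1.51 in this class. MA lay under the lower quartile of all group means at 241 of the 957 (25.2%), about the share such a quartile holds by definition.

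Of 22 measured granulosa identity genes, 13 had a called interaction above 0 and 1 below it (median 2.37, or 3.69 with 20 above and 0 below under poly-A centring). Those that fell in granulosa without passing in fat included follistatin FST (5.63), the nuclear receptor NR5A2 (5.19), the inhibin subunit INHBB (3.67), AMH (2.60) and its receptor AMHR2 (2.14). LHCGR, the LH receptor, fell by 6.02 in granulosa and by 1.28 in fat. Other members of this list rose in fat. The proteoglycan VCAN rose by 6.75 in fat and fell by 1.20 in granulosa (7.95), the gap junction protein GJA1 rose by 4.33 in fat (4.85), and the BMP receptor BMPR1B rose by 3.91 in fat (3.66). GATA4, a gonadal transcription factor, had mean levels of 8.99 in GC and 8.78 in DFOG and an interaction of 0.53 (95% interval -0.81 to 1.87).

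Steroid synthesis genes did not move as 1 group in the values as deposited. Of 14 measured, 5 had a called interaction above 0 and 3 below it (median 0.09, or 1.41 with 9 above and 1 below under poly-A centring). Above 0 were HSD17B1, the electron carriers FDXR (4.12), POR (2.69) and FDX1 (1.26), and the lipoprotein receptor SCARB1 (2.25). Below 0 were HSD3B1, CYP11A1 and HSD17B4 (-1.56). CYP11A1, which cleaves the cholesterol side chain, rose by 2.31 in granulosa, from a mean of 8.73 to 11.03, against 4.16 in MA and 4.44 in DFAT (-2.03 (SE 0.63, adjusted p = 0.0393)). Group means of STAR lay between 4.24 and 4.80 and those of CYP17A1 between 4.81 and 5.20, and the interactions of both and of CYP19A1 did not pass.

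Rises in fat only included cell division genes. CCNB1, cyclin B1, had levels of 4.16, 4.51 and 4.75 in MA, 11.10, 9.70 and 8.58 in DFAT, 11.49, 11.07 and 10.81 in GC and 10.63 and 10.14 in DFOG. MA stood alone at the bottom, and the DFAT values were spread widely, with replicate 1 the highest. Levels of PCLAF, a partner of the replication clamp PCNA, were 3.5, 3.45 and 3.53 in MA, 10.54, 9.16 and 7.90 in DFAT, 10.93, 10.83 and 10.43 in GC and 10.15 and 9.94 in DFOG. Again MA was far below the rest, and the order over the DFAT samples was the same. TOP2A, topoisomerase II alpha, rose by 4.70 in fat and fell by 2.01 in granulosa (6.71 (SE 0.72, adjusted p = 6.52e-05)), and the nucleotide enzymes RRM2 (3.91 (SE 0.82, adjusted p = 0.00511)) and TYMS (4.46 (SE 0.35, adjusted p = 6.42e-06)) rose in fat only. Of 12 mitosis genes, 10 had a called interaction above 0 and none below it (median 3.14), against 12 and 0 with poly-A centring. All 12 started higher in GC than in MA (22.6% of all named genes), and none had a called gap after culture (10.3% of all). Of 9 DNA replication genes, 6 were called above 0 and none below (median 1.75), against 9 and 0 with poly-A centring.

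Other rises in fat only were the Notch target HEY2, cyclin D2 (CCND2) and the growth factor midkine (MDK). HEY2 levels were 4.20, 4.13 and 4.08 in MA, 10.46, 10.85 and 9.94 in DFAT, 11.33, 10.92 and 10.54 in GC and 10.47 and 10.32 in DFOG. DFAT, GC and DFOG lay together, and MA was low. The interaction was 5.60 (SE 0.65, adjusted p = 1.06e-04) for CCND2 and 5.37 (SE 0.56, adjusted p = 5.25e-05) for MDK. At 858 of the 1008 probe sets of this class (85.1%) GC had begun at or above the DFAT level, within 1 log2 unit. At 95 of the rest GC had begun within 1 log2 unit of MA. Probe sets near both levels count only among the 858.

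Rises in granulosa only included genes of matrix and cell attachment at high levels in MA. LAMB1, the laminin beta 1 chain, had levels of 11.28, 11.10 and 11.27 in MA, 11.16, 11.63 and 11.74 in DFAT, 3.89, 4.76 and 3.97 in GC and 11.50 and 11.24 in DFOG. GC alone was low, and the other 3 groups overlapped. The chemokine CCL2 (-6.88 (SE 0.77, adjusted p = 8.57e-05)), the adhesion molecule VCAM1 (-7.90 (SE 1.15, adjusted p = 5.17e-04)), the Wnt antagonist SFRP1 (-6.28 (SE 1.34, adjusted p = 0.00576)) and glutaredoxin GLRX (-6.09 (SE 0.74, adjusted p = 1.52e-04)) rose likewise. VCAM1 levels were 9.50, 9.85 and 10.04 in MA, 6.4, 7.6 and 10.49 in DFAT, 3.88, 3.6 and 4.41 in GC and 10.36 and 10.11 in DFOG, and SFRP1 levels were 10.71, 11.06 and 11.26 in MA, 6.4, 10.90 and 10.40 in DFAT, 5.07, 5.02 and 5.52 in GC and 9.28 and 10.15 in DFOG. Both varied among DFAT samples, and replicate 1 was the lowest for each. MA had begun at or above the DFOG level, within 1 log2 unit, at 492 of the 668 probe sets (73.7%), the smallest such share of the 4 classes. At 128 of the rest MA had begun within 1 log2 unit of GC. Probe sets near both levels count only among the 492.

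Of 17 fibrillar matrix genes, 14 rose in granulosa and 10 in fat, none fell in either, and 9 had a called interaction below 0 and 2 above it (median -2.21). With poly-A centring 6 were called below 0 and 3 above (median -0.89). Decorin (DCN) levels were 9.42, 10.97 and 11.10 in MA, 11.89, 11.29 and 12.58 in DFAT, 3.71, 4.30 and 4.54 in GC and 11.31 and 12.27 in DFOG. GC was far below the rest, DFAT and DFOG overlapped, and MA lay just below them. The rise in fat was small (1.42, adjusted p = 0.0391) and the both-rising call held in 17 of 24 alternatives. The crosslinking enzyme LOX (-4.26), fibronectin FN1 (-3.36), THBS1 (-3.17) and THBS2 (-4.80) also lay below 0. Tenascin TNC rose by 6.98 in fat and 3.19 in granulosa and biglycan BGN by 5.12 and 3.61, so both lay above 0. POSTN, periostin, had an interaction of -5.48 (SE 1.44, adjusted p = 0.0173) with levels of 4.05, 6.39 and 6.76 in MA, 3.67, 5.79 and 7.99 in DFAT, 3.19, 3.55 and 3.72 in GC and 9.73 and 8.36 in DFOG. MA and DFAT were each widely spread, and the POSTN interaction did not pass without DFOG replicate 1 (-4.79, adjusted p = 0.0826).

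Levels of COL15A1, a basement membrane collagen, were 12.58, 12.42 and 12.50 in MA, 13.06, 13.23 and 13.03 in DFAT, 4.27, 3.98 and 4.12 in GC and 12.54 and 12.82 in DFOG. It rose by 8.56 in granulosa and by 0.60 in fat, and DFAT lay slightly above DFOG, by a gap of 0.42 that did not pass. Of 6 basement membrane genes 4 were called below 0 (median -3.80), and among these SPARCL1 fell by 4.87 in fat. With poly-A centring 4 of the list were called below 0 and 2 above (median -2.48). PCOLCE2, an enhancer of procollagen processing, rose by 6.82 in granulosa and 0.94 in fat. Among 14 genes of matrix proteolysis 2 were called above 0 and 2 below, against 6 and 0 with poly-A centring. The inhibitor TIMP1 rose by 5.73 in fat and 3.13 in granulosa, and urokinase (PLAU) by 4.56 and 2.40. The PLAU call was lost without DFOG replicates 2 and 3 (1.98, adjusted p = 0.0621).

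All 20 measured genes of the actin cytoskeleton and adhesion list rose in both lineages, by 0.85 to 10.001 in fat and 0.81 to 8.40 in granulosa, with medians of 3.99 and 4.09. Their interactions passed for 7, of which 3 lay above 0 and 4 below, against 12 and 1 with poly-A centring. ACTG2 levels were 4.22, 4.45 and 4.25 in MA, 14.36, 14.31 and 14.25 in DFAT, 6.74, 6.77 and 6.60 in GC and 12.55 and 12.22 in DFOG. No groups overlapped, MA was lowest and DFAT highest, and the interaction was 4.32 (SE 0.22, adjusted p = 4.18e-07). TAGLN, transgelin, had levels of 10.29, 10.21 and 10.36 in MA, 13.77, 14.05 and 13.96 in DFAT, 5.98, 5.95 and 6.60 in GC and 13.94 and 13.84 in DFOG. DFAT and DFOG overlapped after starts 4.11 apart, and the interaction was -4.07 (SE 0.28, adjusted p = 2.76e-06). For ACTA2, smooth muscle alpha actin, which rose by 7.07 and 6.49, the interaction was 0.59 (95% interval -0.21 to 1.38).

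Falls in both lineages of different size were led by ITIH5, LHCGR, ENPP2 and TSPAN13. ENPP2, autotaxin, had levels of 9.88, 9.95 and 9.70 in MA, 3.16, 2.84 and 3.24 in DFAT, 5.66, 6.94 and 5.94 in GC and 3.81 and 4.26 in DFOG. MA was the highest group and DFAT the lowest, and the interaction was -4.62 (SE 0.44, adjusted p = 2.58e-05). ITIH5, a secreted hyaluronan-binding protein family member, fell by 6.55 in fat and 0.96 in granulosa, and the tetraspanin TSPAN13 by 6.62 and 2.35. The both-falling call of ITIH5 held in 17 of 24 alternatives and was lost with the actin covariate and without GC replicate 2, GC replicate 3 or DFOG replicate 1. The kinase PDK4, which switches off pyruvate oxidation, fell by 7.25 in fat and 4.97 in granulosa (-2.28 (SE 0.46, adjusted p = 0.00416)), but did not pass with poly-A centring (-0.96, adjusted p = 0.103).

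Some genes differed after culture although they had begun alike in the values as deposited. Of the 12528 probe sets whose start gap interval lay within 1 of 0, 484 (3.86%) had a called interaction, 171 named genes among them. At 280 of these 484 the gap passed after culture only. A start gap within that limit passed at 111 and no longer did after culture, and at 80 neither gap passed. Over the 484, the most frequent patterns were a rise in granulosa only (123) and a rise in fat only (111). The genes named next were singled out after their values were seen, as the largest interactions of either sign with a gap after culture only. With poly-A centring none of the genes so chosen kept a gap after culture only, although their interactions kept direction and call. The mean of the poly-A controls was 8.29 in MA and 6.95 in GC, so a like start depends on the normalization. SCG2, the neuroendocrine granule protein secretogranin II, had levels of 3.80, 3.82 and 4.19 in MA, 3.78, 3.70 and 4.82 in DFAT, 3.52, 3.82 and 3.56 in GC and 8.59 and 8.89 in DFOG. DFOG alone was high. Over SCG2, CAP2, DSP, TRH, CHGB and AFF3 together, all values outside DFOG lay between 3.23 and 4.84 and all DFOG values between 6.69 and 8.89. CHGB, chromogranin B (-3.75 (SE 0.35, adjusted p = 2.52e-05)), is a granule protein like SCG2, TRH (-3.78 (SE 0.35, adjusted p = 2.47e-05)) is thyrotropin-releasing hormone, DSP (-4.03 (SE 0.20, adjusted p = 3.96e-07)) is the desmosome protein desmoplakin, and CAP2 (-4.48 (SE 0.35, adjusted p = 7.15e-06)) binds actin. Levels outside DFOG lay near or below 4.49, the lower quartile of all group means, no detection calls were used here, and the filter on low levels removed CAP2, DSP and AFF3, so these differences may be lower limits. KRT19, a simple-epithelium keratin, which the rule for gene lists named, had levels of 4.79, 4.07 and 4.43 in MA, 4.51, 4.11 and 4.03 in DFAT, 3.99, 3.85 and 4.12 in GC and 7.98 and 8.96 in DFOG. DFOG was again the only high group (-4.70 (SE 0.40, adjusted p = 1.14e-05)).

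SCARA5, a ferritin receptor, fell in fat only. SCARA5 levels were 7.0, 7.68 and 8.19 in MA, 4.23, 4.44 and 4.01 in DFAT, 7.43, 6.91 and 8.53 in GC and 8.59 and 8.61 in DFOG. DFAT lay below all other samples, MA and GC overlapped, and DFOG was just above them (interaction -4.38 (SE 0.58, adjusted p = 2.59e-04)). Among interactions above 0 from like starts, the mesodermal transcription factor TCF21 had levels of 3.65, 3.55 and 4.12 in MA, 7.54, 6.88 and 7.05 in DFAT, 3.97, 3.70 and 4.67 in GC and 4.88 and 5.15 in DFOG. DFAT was the highest group, and the call of a rise in fat only held in 17 of 24 alternatives. DFAT was also highest for the glutamate transporter SLC1A6 (2.72 (SE 0.40, adjusted p = 5.40e-04)). TTYH2 rose in both lineages, by 3.01 in fat and 1.04 in granulosa (1.97 (SE 0.24, adjusted p = 1.48e-04)). The receptor IL11RA (2.58 (SE 0.30, adjusted p = 1.03e-04)) and the Wnt effector TCF7L2 (2.14 (SE 0.54, adjusted p = 0.0142)) fell in granulosa only. MGST1, a microsomal glutathione transferase, fell in both lineages, from means of 13.69 in MA and 13.61 in GC to 10.34 in DFAT and 8.47 in DFOG (1.79 (SE 0.40, adjusted p = 0.0077)). The calls of TCF7L2 and XAF1 (1.88) were lost without DFOG replicate 1 (2.02, adjusted p = 0.0597, and 1.64, adjusted p = 0.0722).

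**Figure D4:**
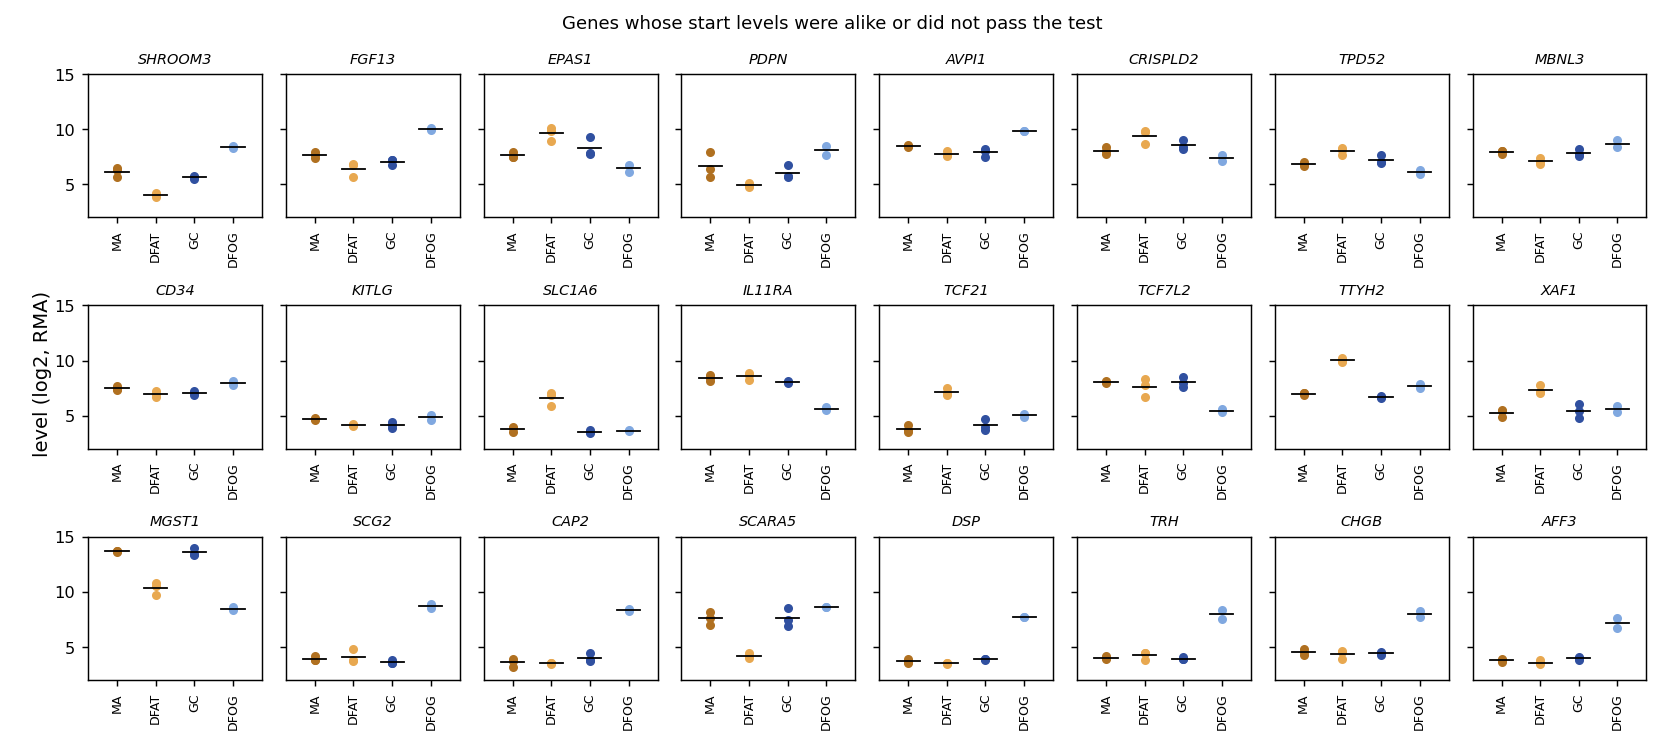
Levels (y axis, log2 RMA) in each sample of MA, DFAT, GC and DFOG for 24 genes whose start levels were alike or whose start gap did not pass the test; points are samples and bars are group means. The means of MA and GC lie within 1 of each other in every panel, and SCG2, CAP2, DSP, TRH, CHGB and AFF3 are above 6 in DFOG alone.

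Of 15 measured glutathione genes, 7 had a called interaction above 0 and 5 below it (median 1.05), against 10 and 3 with poly-A centring. Above 0 were the transferases GSTA1, GSTA4 (2.76) and MGST1 and the synthesis enzymes GCLC (3.14) and GSS (1.52), with the reductase GSR (1.05) and the GSTT1 probe set. Below 0 were the peroxidases GPX3, GPX1 (-4.24) and GPX4 (-2.51), as well as MGST3 and GSTO1. GPX1 and GPX4 fell in fat, by 1.40 and 1.04, and rose in granulosa, by 2.84 and 1.47. GPX3, the plasma peroxidase, had levels of 13.02, 13.27 and 12.998 in MA, 6.68, 8.14 and 8.45 in DFAT, 12.83, 11.001 and 11.91 in GC and 11.54 and 11.11 in DFOG. DFAT alone was low, and the interaction was -4.74 (SE 0.73, adjusted p = 7.37e-04).

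In the insulin-like growth factor system 3 of 11 were called above 0 (IGFBP2, IGF1 at 2.45 and IGF1R at 2.34) and 1 below, against 7 and 1 with poly-A centring. IGFBP5 rose by 3.15 in fat and 6.35 in granulosa with levels of 5.66, 6.07 and 6.26 in MA, 8.15, 9.27 and 10.01 in DFAT, 6.80, 6.0 and 5.17 in GC and 13.44 and 11.25 in DFOG. MA and GC overlapped, and DFOG replicate 1 lay well above the averaged DFOG sample. The IGFBP5 interaction of -3.20 (SE 0.90, adjusted p = 0.0245) did not pass without DFOG replicate 1 (-2.11, adjusted p = 0.126), nor without GC replicate 3, MA replicate 2 or MA replicate 3 (adjusted p = 0.0546 to 0.0594). Of 8 cholesterol genes 4 had a called interaction above 0 and none a called one below, against 6 and 0 with poly-A centring. SQLE, squalene epoxidase, rose by 3.51 in fat (3.11 (SE 0.40, adjusted p = 2.14e-04)), and the regulator SREBF2 rose by 1.37 in fat and fell by 1.02 in granulosa (2.39 (SE 0.33, adjusted p = 3.57e-04)).

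Of 15 genes of TGF-beta and BMP signalling, 5 were called above 0 and 3 below, against 10 and 1 with poly-A centring. Ligands differed among themselves. TGFB1 rose by 2.15 in fat and 4.37 in granulosa (-2.21), BMP4 rose by 2.17 in granulosa only (-2.49), and TGFB3 rose by 3.53 in fat only (2.63). ID2, a BMP-responsive repressor, fell by 3.53 in granulosa (3.65 (SE 0.63, adjusted p = 0.00156)). Of 14 cytokines and chemokines 5 were called below 0 and none above (median -0.77, which became 0.55 with poly-A centring), among them CCL2, LIF (-3.32), which rose in both lineages, and IL15 (-3.51 (SE 0.23, adjusted p = 2.19e-06)) and CXCL2 (-3.12), which fell in fat only.

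Immediate early genes, known to be induced by tissue handling and growth factors, fell in both lineages for the most part, 10 of 11 in fat and 7 in granulosa. Their interactions were called below 0 for 4 and above 0 for 1 (median -0.57, which became 0.75 with poly-A centring). FOS fell by 5.07 and 5.17, with an interaction of 0.09 (95% interval -1.29 to 1.48). IER3 had levels of 11.26, 11.68 and 11.83 in MA, 9.85, 9.91 and 9.79 in DFAT, 6.16, 5.88 and 5.82 in GC and 8.88 and 9.08 in DFOG. GC was lowest and MA highest, and no groups overlapped. The growth regulator MYC fell by 0.61 in fat and rose by 3.01 in granulosa (-3.61 (SE 0.26, adjusted p = 3.72e-06)).

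In the interferon list 2 of 14 were called below 0 and 1 above, against 1 and 7 with poly-A centring. IRF1 fell by 2.96 in fat (-3.37 (SE 0.58, adjusted p = 0.00163)) and ISG15 rose by 3.29 in fat (3.42 (SE 1.08, adjusted p = 0.0412)), but the ISG15 call was lost in a repeated quantile normalization (adjusted p = 0.0502) and without any 1 of GC replicate 3, DFOG replicate 1, the 3 MA replicates, DFAT replicate 2 or DFAT replicate 3 (adjusted p = 0.0558 to 0.162). Of 15 complement and defence genes 2 were called above 0 and 2 below, against 7 and 0 with poly-A centring. CD55, which protects cells from complement, rose by 1.66 in fat and fell by 3.48 in granulosa (5.15 (SE 0.55, adjusted p = 6.54e-05)), and C7 fell by 2.86 in granulosa (3.21 (SE 0.44, adjusted p = 3.56e-04)).

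Genes of central energy metabolism had called interactions about as often as all named genes (29.2%). Of 17 glycolysis and glucose transport genes, 11 rose in fat and 9 in granulosa, and 2 interactions were called above 0 and 3 below, against 8 and 1 with poly-A centring. ALDOC, an aldolase, fell by 3.58 in fat and rose by 1.33 in granulosa (-4.91 (SE 0.56, adjusted p = 9.81e-05)), whereas LDHA rose by 3.24 and 1.92 (1.32). Of 15 oxidative phosphorylation genes 4 were called below 0 and none above, which became none below and 9 above with poly-A centring. COX7A1 fell by 2.98 in fat and 1.84 in granulosa (-1.13 (SE 0.31, adjusted p = 0.0214)), and NDUFA4 by 1.02 in fat (-1.08 (SE 0.32, adjusted p = 0.0309)); with poly-A centring these interactions were 0.19 and 0.24, and each call also depended on single arrays. COX7A1 did not pass without MA replicate 2 (adjusted p = 0.0526), and NDUFA4 not without GC replicate 2 or 3, DFOG replicate 1, DFAT replicate 3 or any MA replicate (adjusted p = 0.0537 to 0.136). Of 14 ribosomal protein genes, RPL13 passed (0.97 (SE 0.24, adjusted p = 0.0136)), though not without DFOG replicate 1 (0.91, adjusted p = 0.0606). With poly-A centring all 14 were called above 0.

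**Figure D5:**
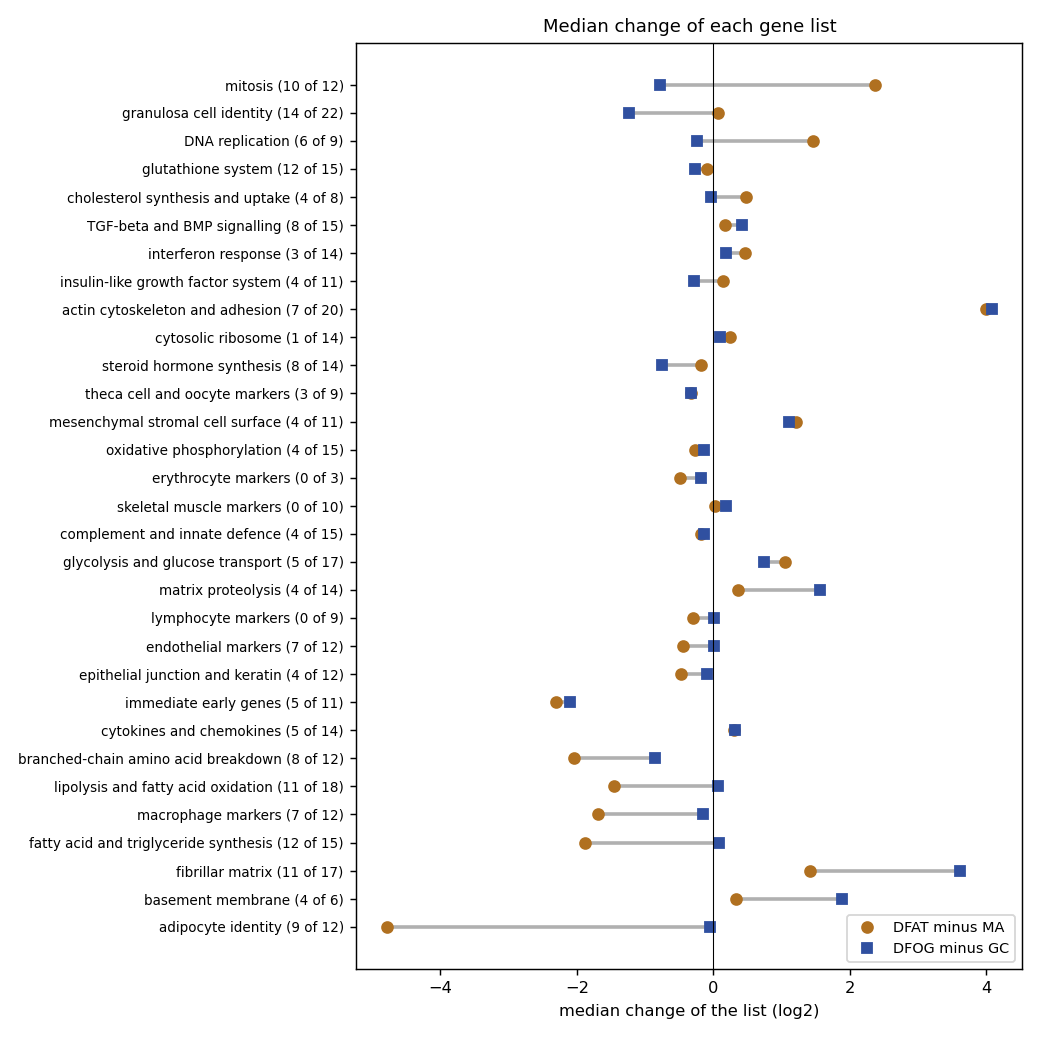
Median change of each of 31 gene lists (x axis, log2) in the fat lineage (circles, DFAT minus MA) and the granulosa lineage (squares, DFOG minus GC), ordered by the median interaction; the label gives how many of the measured genes passed the interaction test. The adipocyte identity list has the widest distance with fat lower, mitosis the widest with fat higher, and the actin list changes by 3.99 and 4.09.

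Macrophage markers fell in the fat lineage. Of 12 measured, 10 fell in fat, and 7 had a called interaction below 0 (median -1.68, or -0.36 with 2 called below and 2 above under poly-A centring). C1QC had levels of 4.74, 8.12 and 8.40 in MA, 3.47, 3.37 and 3.65 in DFAT, 3.55, 3.41 and 3.57 in GC and 3.49 and 3.19 in DFOG. MA replicate 1 was lower than the other MA samples, and the C1QC interaction (-3.42 (SE 1.09, adjusted p = 0.0429)) was lost without any 1 of the GC or DFAT replicates, DFOG replicate 1, MA replicate 2 or MA replicate 3 (adjusted p = 0.0632 to 0.129). CD74, the invariant chain of MHC class II, fell in fat only, with levels of 7.56, 7.57 and 7.77 in MA, 4.43, 4.41 and 4.34 in DFAT, 5.03, 4.74 and 4.97 in GC and 5.03 and 4.09 in DFOG. MA alone was high (-2.88 (SE 0.32, adjusted p = 8.67e-05)). Of 12 endothelial markers 5 were called below 0 and 2 above, against 1 and 6 with poly-A centring, among them PECAM1 (-3.41 (SE 0.44, adjusted p = 2.38e-04)), which fell by 1.65 in fat and rose by 1.77 in granulosa, and TIE1, which fell by 2.47 in granulosa (1.96 (SE 0.39, adjusted p = 0.00359)). Of 9 theca cell and oocyte markers 3 were called above 0: LHCGR, INSL3, which fell by 3.01 in granulosa (2.63 (SE 0.45, adjusted p = 0.00162)), and GDF9 (0.78). With poly-A centring 7 of these markers were called above 0. The part of these cells in the fat-only and granulosa-only falls was not tested.

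Of 12 epithelial junction genes 3 were called below 0 and 1 above, against 2 and 5 with poly-A centring, CLDN4 falling by 3.10 in fat only (-2.99 (SE 0.25, adjusted p = 1.23e-05)). Limma's adjusted test called none of 9 lymphocyte, 10 skeletal muscle and 3 erythrocyte markers, of which 1, 3 and 0 had an unadjusted p under 0.05. With poly-A centring 4, 8 and 3 of them were called, all above 0. Of 11 mesenchymal stromal surface genes 2 were called above 0 and 2 below, against 5 and 1 with poly-A centring, ICAM1 rising by 3.81 in fat only (2.69 (SE 0.58, adjusted p = 0.00604)). THY1, which rose by 4.24 and 4.35, had an interaction of -0.11 (95% interval -1.92 to 1.69), and the gelatinase MMP2, which rose by 2.74 and 2.55, one of 0.19 (95% interval -1.52 to 1.90).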

How the data were processed

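The deposited table holds the authors' log2 values of 12 Affymetrix porcine arrays, normalized by RMA per the submitters' processing notes, for 24123 probe sets, of which 124 controls were left out. RMA includes quantile normalization, which forces like distributions on all arrays. Samples were grouped by their labels. DFOG replicates 2 and 3 were averaged. A group-means model over all 4 groups (11 samples, 7 residual degrees of freedom) was fitted with limma 3.58.1 in R 4.3.3, with eBayes and Benjamini-Hochberg adjustment over 23999 probe sets for each contrast, and an adjusted p under 0.05 counted as a call. Intervals are 95% intervals of the fit, unadjusted. An opposite change needed calls for both changes and for the interaction. A like start needed the interval of MA minus GC within 1 (2-fold). The interaction shares the MA and GC arrays with the start gap and the cultured arrays with the end gap.

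The platform annotation gave exactly 1 gene symbol for 10069 probe sets, several for 198 and none here for 13732. Each of 6765 named genes is represented by its probe set of highest mean level, and 2261 had several. Genes were named by the smaller of both changes (opposite, up to 8 per direction), the smaller gap (crossing, up to 4), the interaction (1 lineage, up to 5; same sign, up to 4) and the 2 largest called interactions of each of 31 gene lists, with 398 of 517 entries measured. Among 88 such genes 30 had several probe sets. For 13 of these some probe sets were not called, and no probe set was called in the other direction. Other list members are examples chosen after their values were seen. The members and lists were chosen with earlier results of these data known.

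The fit was tested on simulated data with known interactions, 50 of each size. It recovered 20% of those of size 1, 68% of size 2, 90% of size 3 and 100% of size 5. Among its 145 calls 6 were false. The real data had 5593 calls, so these shares do not carry over directly. Alternatives covered replicate averaging, blocking, centring, normalization, array weights, an actin covariate, filters, thresholds and the omission of arrays. Figures were drawn with Python 3.11.15 and matplotlib 3.10.9. The number of arrays limits the precision. No sequences were used here.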

Additional observations from a re-analysis of the deposited data

Results flagged for a closer look

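For 88 named genes the interaction, which is itself the test of the difference between the lineages, passed at an adjusted p under 0.05. Groups of 2 or 3 samples were too small for a test of outlying values within a group. The values below are log2 interactions, positive where the fat lineage rose more or fell less, and no explanation was tested.

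Rising in fat and falling in granulosa, the interactions were those of ABCB1 (6.43), AREG (6.03), CD55 (5.15), IGFBP2 (10.64), LHFPL2 (6.03), LRP8 (6.70), MSANTD3 (5.90), PTGES (6.64), RARRES1 (6.77), SERHL2 (6.60), SERPINE2 (9.03), SREBF2 (2.39) and TOP2A (6.71).

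Falling in fat and rising in granulosa, the interactions were those of ABHD5 (-5.16), ACSL1 (-6.78), ALDOC (-4.91), CELF2 (-6.85), FABP4 (-6.69), GPM6B (-6.56), GPNMB (-6.05), HSD3B1 (-10.14), IER3 (-4.77), MGLL (-4.75), MYC (-3.61), PECAM1 (-3.41), RGCC (-6.98), RGS5 (-5.48) and SGK1 (-5.47).

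Rising in both lineages, the interactions were those of ACTG2 (4.32), COL15A1 (-7.96), DCN (-6.18), IGFBP5 (-3.20), PCOLCE2 (-5.88), PLAU (2.16), TAGLN (-4.07), TIMP1 (2.60) and TMEM158 (6.15).

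Falling in both lineages, the interactions were those of ACADSB (-1.87), COX7A1 (-1.13), ENPP2 (-4.62), ITIH5 (-5.59), LHCGR (4.74), PDK4 (-2.28) and TSPAN13 (-4.27).

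Rising in fat only, the interactions were those of BMPR1B (3.66), CCNB1 (6.05), CCND2 (5.60), HEY2 (6.81), ICAM1 (2.69), ISG15 (3.42), MDK (5.37), PCLAF (6.4), RPL13 (0.97), RRM2 (3.91), SQLE (3.11) and TYMS (4.46).

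Falling in fat only, the interactions were those of ADIPOQ (-8.09), C1QC (-3.42), CA3 (-8.64), CD74 (-2.88), CLDN4 (-2.99), DGAT2 (-5.78), GPX3 (-4.74), IL15 (-3.51), IRF1 (-3.37), MCCC2 (-3.94), MMD (-5.50), NDUFA4 (-1.08), PDE6C (-6.23), PON3 (-8.61) and SGK2 (-7.39).

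Rising in granulosa only, the interactions were those of CCL2 (-6.88), GLRX (-6.09), KRT19 (-4.70), LAMB1 (-6.87), NUAK1 (-5.42), POSTN (-5.48), SFRP1 (-6.28) and VCAM1 (-7.90).

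Falling in granulosa only, the interactions were those of ACSL6 (6.73), C7 (3.21), DAPL1 (7.98), GSTA1 (7.78), HSD17B1 (8.43), ID2 (3.65), INHA (6.98), INSL3 (2.63) and TIE1 (1.96).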

How the results depend on the processing

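The 5593 interaction calls ranged from 4130 without DFOG replicate 1 to 5899 without DFAT replicate 1 when single samples were left out. Over the same omissions opposite changes ranged from 443 to 788, same-sign changes from 380 to 717, changes in 1 lineage from 3144 to 4178, converging gaps from 3392 to 4433, gaps after culture only from 251 to 441, gaps turned in sign from 119 to 245, gaps kept from 261 to 635 and interactions with neither gap called from 107 to 193. Leaving out the averaged DFOG sample, an alternative added after seeing the data, gave 138 gaps turned in sign and 272 kept. Poly-A centring gave 16598 interactions, 2331 opposite changes, 9755 changes in 1 lineage, 15396 converging gaps, 230 gaps after culture only and 297 with neither gap called. The actin covariate gave 308 opposite changes and 235 with neither gap. At an adjusted p under 0.01 there were 3452 interactions, 317 opposite and 273 same-sign changes, 2773 converging gaps, 236 after culture only, 104 turned in sign and 234 kept. A minimum size of 1 left 353 opposite and 407 same-sign changes and 129 gaps turned in sign, with 540 with neither gap. With 12 separate arrays 358 gaps turned in sign. The causes were not tested.

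With the replicate number as a block, 5719 interactions were called with the averaged DFOG sample numbered 2 and 5700 with it numbered 3, of which 5037 and 5023 were among the 5593, and 712 and 746 had neither gap called. In these fits both gaps were taken at replicate 1 and not between group means. The 712 and 746 are therefore not comparable with the 149 of the main fit. The start and end classes of RGS5 in these fits have the same limit. The labels do not say that the numbers pair the samples. Correlations of same-numbered deviations were 0.0999, 0.168 and 0.126 for MA and DFAT, where every sample correlated best with its own number, and 0.604 and 0.525 for GC and DFOG. With 2 DFOG samples the deviations mirror each other, so the correlations of GC and DFOG come in pairs of opposite sign. They could not decide whether the samples were paired, and the main fit used no pairing.

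Of 2570 checks of 112 genes over the alternatives, 2514 kept direction and call, 53 lost the call and 3 turned in sign, all with poly-A centring: COX7A1 (0.19), KITLG (0.084) and NDUFA4 (0.24). The same centring turned the median interaction of 13 of 31 gene lists, each from below 0 to above it, among them branched-chain amino acid breakdown (0.18), immediate early genes (0.75), cytokines and chemokines (0.55), oxidative phosphorylation (1.16), glycolysis (1.04) and endothelial markers (0.92). PLAU lost its call without the averaged DFOG sample, as did COX7A1 (-0.87, adjusted p = 0.107), C1QC and ISG15. The filter on low levels left no value for AFF3, C1QC, CAP2, DSP, KITLG and SLC1A6, which it removed.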
